A study of Mus musculus with 2 samples.

Results

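The C-type lectin complex on mouse chromosome 6 is described here by 8 of its genes, Klrb1c, Clec2d, Cd69, Clec12a, Clec1b, Clec9a, Clec1a and Clec7a, and by the chromatin loops that Hi-C placed over them. Hi-C ligates and sequences pairs of DNA fragments that were near each other in the fixed nucleus, and a loop is a pair of places called for more contact than their surroundings. The genes were listed by name, and the loops were those with an anchor in, or a span over, 128400000 to 129800000 on chromosome 6 in mm10. That gave 8 of 21521 protein-coding genes, and 11 of 7005 deposited loops, 2 of 1276 in replicate 1 and 9 of 5729 in replicate 2. The genes were chosen from the deposited loops, with anchor positions known, so how often they lie at loops is a description and was not tested.

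Both samples are of HPC5, a progenitor line derived from bone marrow, with the genotype Etv6+/+ and no drug or cytokine treatment named in the labels. In each, cells were fixed in 2% formaldehyde for 10 min and processed with the Arima kit. The labels do not tell whether the samples were grown apart, so the spread between them may be technical. There is no mutant or stimulated sample, and the line's identity could not be checked against expression markers, since only contacts were measured.

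C-type lectin-like receptors are membrane proteins of immune cells whose extracellular domain has the lectin fold. Some bind sugars, others bind proteins or crystals, and many pass an inhibiting or activating signal into the cell. In the mouse their genes lie side by side, and neighbours act in different cells. Nkrp1 receptors such as that of Klrb1c, the NK1.1 antigen, sit on natural killer cells, and the protein of Clec2d, also called Clr-b, is a ligand of an inhibitory Nkrp1 receptor. Cd69 encodes an early activation antigen of lymphocytes that also holds cells in tissue. Clec12a encodes an inhibitory receptor of myeloid cells, Clec1b the podoplanin receptor of platelets, Clec9a a dendritic cell receptor for the actin of dead cells, Clec1a a receptor for fungal melanin, and Clec7a dectin-1, the myeloid receptor for fungal beta-glucan.

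Of the 8 genes, 6 have a promoter entry in RefSeq (build GRCm38.p6), and Cd69 and Clec1a have none. The 250 bases before the transcription start are shown for the 3 genes whose start lay inside a loop anchor, and for Clec2d, whose opposite end did. They lie at chr6:129349994-129350243 (Clec12a, plus strand), chr6:129397047-129397296 (Clec1b, plus strand), chr6:129472786-129473035 (Clec7a, minus strand, the upstream of its 2 entries) and chr6:129180365-129180614 (Clec2d, plus strand). Capitals mark matches to 6 searched motifs.
Clec12a: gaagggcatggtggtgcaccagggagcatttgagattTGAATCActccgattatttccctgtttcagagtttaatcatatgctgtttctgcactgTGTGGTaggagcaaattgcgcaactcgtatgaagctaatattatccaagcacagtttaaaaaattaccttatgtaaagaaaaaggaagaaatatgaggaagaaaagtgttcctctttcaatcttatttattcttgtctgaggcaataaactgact
Clec1b: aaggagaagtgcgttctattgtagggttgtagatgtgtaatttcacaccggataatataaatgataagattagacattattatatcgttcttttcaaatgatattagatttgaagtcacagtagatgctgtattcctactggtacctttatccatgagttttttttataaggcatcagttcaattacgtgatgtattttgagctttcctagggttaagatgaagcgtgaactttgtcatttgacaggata
Clec7a: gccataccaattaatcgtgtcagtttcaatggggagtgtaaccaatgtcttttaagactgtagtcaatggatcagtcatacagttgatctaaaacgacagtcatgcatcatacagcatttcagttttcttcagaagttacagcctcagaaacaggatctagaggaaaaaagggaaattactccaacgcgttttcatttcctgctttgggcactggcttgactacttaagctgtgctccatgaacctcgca
Clec2d: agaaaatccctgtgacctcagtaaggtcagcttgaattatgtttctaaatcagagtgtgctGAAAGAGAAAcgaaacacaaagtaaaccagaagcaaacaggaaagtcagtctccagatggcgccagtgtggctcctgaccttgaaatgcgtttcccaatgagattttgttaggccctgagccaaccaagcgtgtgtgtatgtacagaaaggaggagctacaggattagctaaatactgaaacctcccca

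The motifs were searched on both strands, and no matches overlapped. The ETS motif was spelled GGAAGT. For the RUNX factors of blood cells TGTGGT was used, and for the GATA factors of red cells and progenitors the letters were AGATAA. The AP-1 motif, which reads the same on both strands, was TGANTCA. Longer motifs were the interferon response element and the CTCF core. Clec12a held an AP-1 match from position -213 and a RUNX match from position -155 before its start. Clec2d held an interferon response match, GAAAGAGAAA, from position -189. Klrb1c, not shown, held an ETS match from -119 and a RUNX match from -89, and among the 6 genes it was the only one with the ETS letters. No match lay in the windows of Clec1b, Clec9a or Clec7a. Among 32619 promoter entries of all genes, the same windows held the ETS letters in 19.8%, RUNX in 13.9%, GATA in 10.0%, AP-1 in 6.78%, interferon response in 2.99% and the CTCF core in 1.18%. A match is a description of letters and not of binding. The GC content of the 7 windows ran from 33.2% at Clec1b to 47.6% at Klrb1c, against a median of 52.4% over all entries (quartiles 45.2 and 61.2%).

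When overlapping loops were joined into stretches, Cd69 lay in a stretch with Clec12a and not with Clec2d. In replicate 1 a stretch from 129250001 to 129374999 held Cd69, Clec2m and Clec12a, and a second from 129375001 to 129499999 held Clec12b, Clec1b, Clec9a, Clec1a and Clec7a. In replicate 2 the corresponding stretches ran from 129255001 to 129369999 and from 129390001 to 129519999. They held the same 4 listed receptor genes on the right and the same 3 genes around Cd69. Clec12b, which reaches left of 129390001, was not within the right-hand one in replicate 2. In replicate 2 there were 20 kb between these stretches. To the left, replicate 2 had a stretch of 4 loops from 128845001 to 129254999, with Clec2d and 6 other protein-coding genes, with 1 base between it and the Cd69 stretch. The 2 stretches of replicate 1 abutted in the same way, so they are apart only by the edges of their bins. No replicate 1 loop lay within that left-hand stretch, though the left anchor of its Cd69 loop, 129250001 to 129274999, overlapped the end of it. Klrb1c lay outside every loop of both lists.

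**Figure D1:**
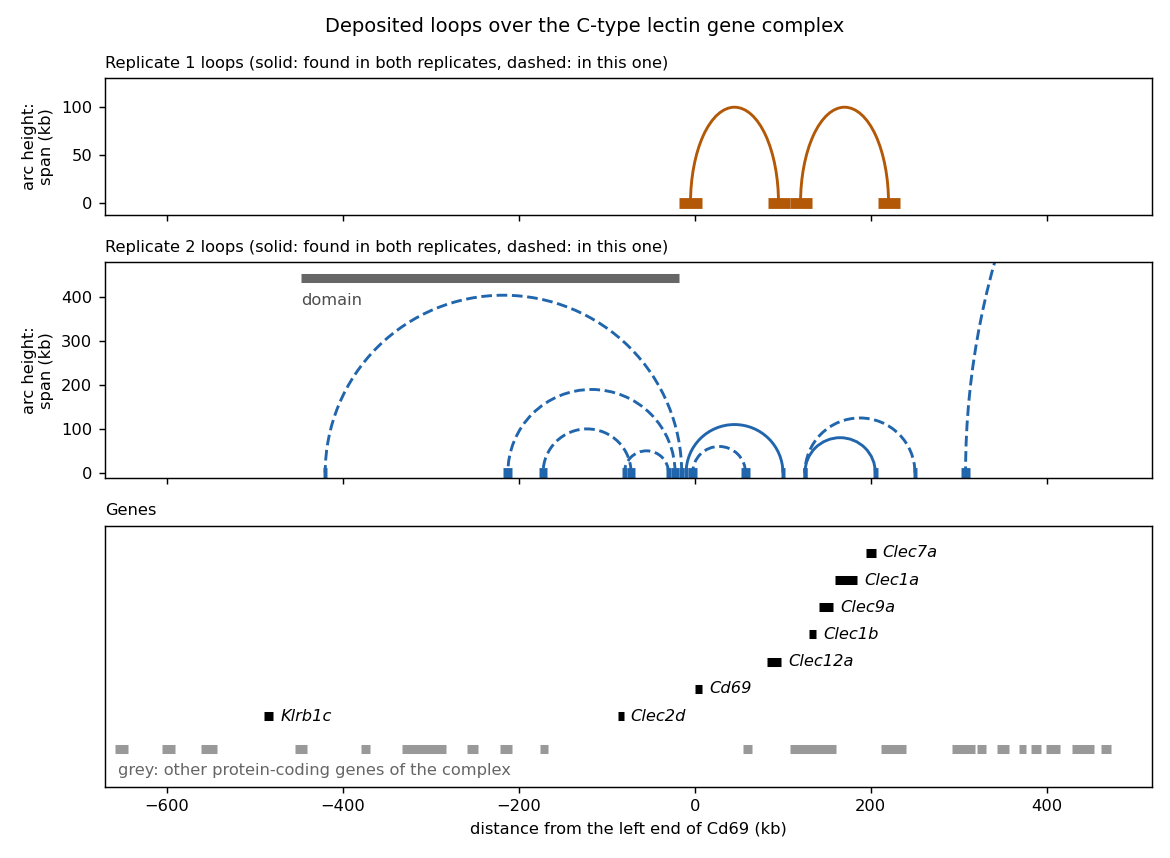
Loops of replicate 1 (top) and replicate 2 (middle) and the genes (bottom), in kb from the left end of Cd69. Arc height is the loop's span, thick marks are anchors, solid arcs are loops found in both replicates, and the 1780 kb loop leaves the panel at the top. Both replicate 1 arcs have a solid counterpart in replicate 2, and the left-hand arcs and the domain appear in replicate 2 alone.

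Cd69 (chromosome 6, 129267324 to 129275375, 8052 bp) had its left end in an anchor in each replicate, but not of the same loop. In replicate 1 the anchor was 129250001 to 129274999, joined over 100 kb to 129350001 to 129374999, and it covered all of Cd69 but the 376 bases at its right end. In replicate 2 the anchor was 129260001 to 129269999, joined over 60 kb to 129320001 to 129329999, where the left end of Clec2m lies. The right end of Cd69 was 5376 bases outside that anchor. Strand and transcription start of Cd69 are not listed in the reference used, so its left end is not to be read as its promoter.

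Each loop carries a whole number tagged n, which the files do not define and which grows with anchor width, so it is compared only within 1 list and width. The 60 kb loop had n of 62, with 10 of 2368 loops on 10 kb anchors in its list above it and a median of 29. The 100 kb loop of replicate 1 had n of 60, with 8 of 1074 loops on 25 kb anchors above it and a median of 31. By n, both loops at Cd69 stood among the highest of their width. This is a property of the loops that the genes were picked for. The ranking was not matched for span. Of 5729 replicate 2 loops 5078 spanned at least 60 kb, and of 1276 replicate 1 loops 1189 spanned at least 100 kb. Whether span bears on n was not tested. A second value of each loop, qBL, is not defined either.

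Clec12a (129349783 to 129365303, 15521 bp) lay at the far end of the replicate 1 loop of Cd69. The right-hand anchor of that loop held its transcription start at 129350244 and its right end, and left out the first 218 bases of the annotated gene. In replicate 2 the loop found at the same place joined 129255001 to 129259999 and 129365001 to 129369999 over 110 kb, with n of 22 (median 19 over 986 loops on 5 kb anchors). Its midpoints were 5 kb from those of replicate 1 at either side. With these narrower anchors the right-hand one held the right end of Clec12a and not its start, which was 14757 bases away, and the left-hand one held no gene end. The anchor lay left of Cd69, and the gene was inside the loop. The pairing of Cd69 with Clec12a at gene ends was therefore present on 25 kb anchors in replicate 1 and was not resolved to Cd69 itself on the 5 kb anchors of replicate 2.

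The 40 kb to the left of Cd69, together with the gene, was met by 5 replicate 2 anchors, all of different loops. Of these, 3 were right-hand anchors of loops from BC035044, Klrb1f and Clec2d, and 2 were left-hand anchors of loops toward Clec2m and Clec12a. Replicate 1 had 1 anchor there, a left-hand one. The only domain deposited over the complex ended in the same place. It was listed in replicate 2 alone, from 128820001 to 129250000, 430 kb against a median of 365 kb over the 339 domains of that list. Clec2d was inside it, and Cd69 began 17.3 kb beyond its right end. It also held BC035044, Clec2i, Clec2g, Clec2f, Klrb1f and Clec2e in full, and its left end cut through Klrb1b, 31.4 kb to the right of Klrb1c. Replicate 1 listed 3 domains in all and none here.

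Clec1b (129397297 to 129405413, 8117 bp), Clec9a (129408862 to 129424764, 15903 bp), Clec1a (129426684 to 129452000, 25317 bp) and Clec7a (129461591 to 129472785, 11195 bp) are packed with gaps of 3.45, 1.92 and 9.59 kb. A loop ran over the group in both replicates. In replicate 1 it joined 129375001 to 129399999 and 129475001 to 129499999 over 100 kb, with n of 58. By n, 12 of 1074 loops of that width stood above it. Against 4.68e-07 for the Cd69 loop of the same list and width, the qBL of this loop was 0.000378. Its left anchor held the transcription start of Clec1b and the left end and start of Clec12b, an inhibitory receptor gene whose record overlaps those of Clec1b, Clec9a and Clec1a. Its right anchor held the left end of Olr1, which encodes the oxidised LDL receptor LOX-1, and began 2216 bases beyond the right end of Clec7a.

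In replicate 2 the matching loop joined 129390001 to 129394999 and 129470001 to 129474999 over 80 kb, with n of 22. Here the right anchor held the transcription start of Clec7a. The left anchor lay in the body of Clec12b and was 2298 bases from the start of Clec1b. The genes named at the anchors thus differed between the replicates, with Clec1b, Clec12b and Olr1 in replicate 1 and Clec7a in replicate 2. The right anchors of the matching loops did not overlap but abutted, at 129474999 and 129475001, so they are apart only by the edges of their bins. Their midpoints were 15 kb apart, on anchors of 5 kb in replicate 2 and 25 kb in replicate 1. At a matching distance of 10 kb, or when both anchors had to overlap, 1 of the 2 replicate 1 loops was found again, that of Cd69 and Clec12a.

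The left anchor of this replicate 2 loop started another loop of 125 kb, with n of 21, to 129515001 to 129519999 at the right end of Tmem52b. That loop ran over Clec1b, Clec9a, Clec1a, Clec7a and Olr1. Clec9a and Clec1a had no end in any anchor. Clec9a was 8863 bases from the nearest anchor in replicate 1 and 13863 in replicate 2, and Clec1a was 23001 and 18001 bases away.

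Clec2d (129180615 to 129186535, 5921 bp) had its right end in a replicate 2 anchor, 129185001 to 129189999. It was joined over 50 kb to 129235001 to 129239999, the right end and start of the non-coding gene 2310001H17Rik. This loop had n of 16, below the median of 19 for its width, and it was the shortest of the 9. The start of Clec2d was 4386 bases outside the anchor. In replicate 1 the nearest anchor was 63466 bases away. A loop of 100 kb, with n of 36, ran over Clec2d from the left end of Clec2e, another gene of the Clr family of Nkrp1 ligands, to the start of the non-coding gene Gm38906. A loop of 190 kb, also with n of 36, ran over it from the right end of Klrb1f, an Nkrp1 receptor gene. The widest, of 405 kb with n of 17, ran from the left end of BC035044 to 129250001 to 129254999, where no gene ends. Clec2d thus lay under 3 nested replicate 2 loops. Clec2e and the pseudogene Klrb1-ps1 also lay between the outer edges of 3. None of the 4 loops of this stretch was found in replicate 1. Over all replicate 2 loops, 18.2% had a partner there. The replicate 1 list held no loop on 5 kb anchors, the width of the 50 and 405 kb loops.

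Klrb1c (128778485 to 128788641, 10157 bp) had the most distant anchors of the 8 genes. Its transcription start was 56360 bases from the nearest anchor in replicate 2 and 461360 in replicate 1. Over all protein-coding genes, the nearer end had quartiles of 2.62 and 138 kb in replicate 2. In replicate 1 they were 79.1 and 1078.4 kb, so Klrb1c lay between the quartiles in each. Left of the first anchor of the complex, 1405 kb in replicate 2 and 1875 kb in replicate 1 held no anchor. Klrb1c, Klrb1b, Klrb1, Clec2h and Klrb1a lie in that stretch in both lists. How common such lengths without an anchor are was not counted.

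**Figure D2:**
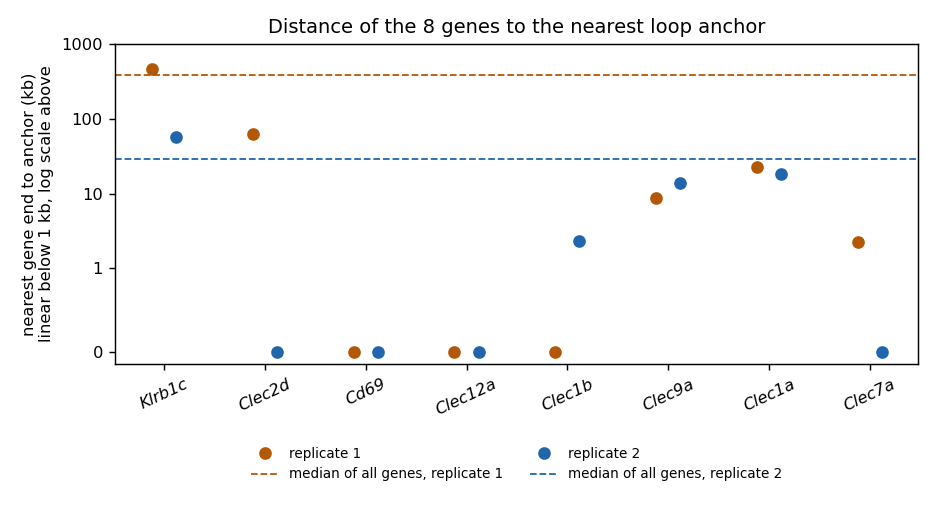
Distance in kb from the nearer end of each of the 8 genes to the nearest anchor in replicate 1 and replicate 2, on an axis that is linear below 1 kb and logarithmic above. Dashed lines are the medians of all 21521 protein-coding genes, 387.2 kb in replicate 1 and 29.2 kb in replicate 2; Cd69 and Clec12a are at 0 in both replicates.

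Over the 8 genes, 3 had an end in an anchor in replicate 1 (Cd69, Clec12a and Clec1b), against 6.67% of protein-coding genes. In replicate 2 it was 4 (Cd69, Clec12a, Clec2d and Clec7a), against 19.8%. In either it was 5, against 22.5%. Cd69 and Clec12a were the 2 genes found in both, for which no share over all genes was computed. At loops found in both replicates there were 4, without Clec2d, against 5.83%. In the high-setting lists, which hold the same loops as the medium lists used above without those on 25 kb anchors, 4 genes had an end in an anchor, against 9.53%. When gene bodies were counted it was 5, against 30.0%, and with ends within 5 or 10 kb of an anchor it was 5 and 6, against 30.6 and 36.5%. Since the genes were chosen for these loops, nothing is read from these shares. Of the 6 genes with a listed transcription start, Clec12a and Clec1b had it in an anchor in replicate 1 (4.15% of genes with a start) and Clec7a in replicate 2 (12.9%), so 3 of 6 in either (14.9%). The genes that lay between the outer edges of a loop were 6 of 8 in replicate 1, against 9.28%, and 7 of 8 in replicate 2, against 34.0%.

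Of 20 other protein-coding genes of the complex, Clec12b and Olr1 had an end in an anchor in replicate 1 (2 of 20, against 6.67%) and Klrb1f, Clec2e and Clec2m in replicate 2 (3 of 20, against 19.8%). In either it was 5 of 20, against 22.5%, and 15 had none. None had one in both replicates. No share over all genes was computed for both, so nothing is read from that count. The gene with the loop anchors most like those of a listed gene, by anchors shared over anchors of either, was Clec12b, which shared the 1 anchor of Clec1b. The other 4 listed genes at an anchor shared theirs with no gene end. The natural killer receptor genes to the right, from Klrd1 (CD94) and Klrk1 (NKG2D) through the Klrc genes, had no end in an anchor. They lay under a replicate 2 loop of 1780 kb, which joined 129570001 to 129579999 to 131350001 to 131359999. The transcription starts of Klre1 lie in its left anchor and the right end of Styk1 in its right anchor, and between them were 25 protein-coding genes, 11 of them Klra genes of the Ly49 receptor family. There were 8 loops of at least that span in the list, this one included. It had n of 26, below the median of 29 over loops of its width and any span, and no partner in replicate 1. By qBL the order was different. This loop had 4.26e-09, against 0.00097 for the 100 and 190 kb loops with n of 36 on the same width. The 60 kb loop at Cd69, also on 10 kb anchors, had n of 62 and qBL of 2.42e-11. Neither n nor qBL is defined, so no strength is read from them.

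**Figure D3:**
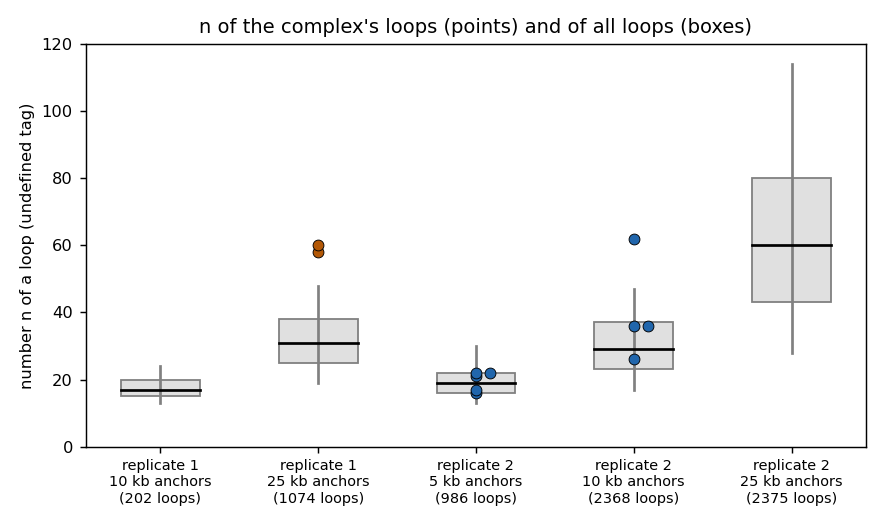
The number n of each loop of the complex (points) beside all loops of the same replicate and anchor width (box: quartiles, line: median, whiskers: 5th to 95th percentile). The points at 60 and 58 in replicate 1 and at 62 in replicate 2 lie above the whiskers, and the other 8 lie within them.

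The 9 replicate 2 loops were all on narrow anchors, 5 of 5 kb and 4 of 10 kb, while 41.5% of that list was on 25 kb anchors. Both replicate 1 loops were on 25 kb anchors, as were 84.2% of that list, which held none on 5 kb anchors. The high-setting lists held exactly the loops on 5 and 10 kb anchors (202 in replicate 1 and 3354 in replicate 2), so the 9 loops are in them and the 2 are not by their anchor width alone. Their spans had a median of 110 kb in replicate 2, against 150 kb over the list. Both replicate 1 loops were found in replicate 2 with midpoints within 20 kb, against 80.6% of all replicate 1 loops. In the other direction it was 2 of 9, against 18.2%. The list of replicate 1 was shorter, and the sequencing depth behind either list is unknown, so a loop listed in replicate 2 alone is not shown to be absent from replicate 1.

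Among 1824 windows of the same 1.4 Mb length laid end to end along the chromosomes, the median held 0 loops in replicate 1 (quartiles 0 and 1) and 3 in replicate 2 (quartiles 1 and 6), against 2 and 9 here. Of these windows 79.1% held fewer loops than the complex in replicate 1 and 90.3% in replicate 2. The complex was chosen with its loops known, so these ranks are a description and nothing is read from them. It held 37 protein-coding genes against a median of 8 (quartiles 3 and 15), and 94.4% of windows held fewer. Its 8 listed genes were short, 5921 to 25317 bp with a median of 10676 bp, against 17375 bp over all protein-coding genes. Whether gene density or gene length bears on the loop counts was not tested.

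**Figure D4:**
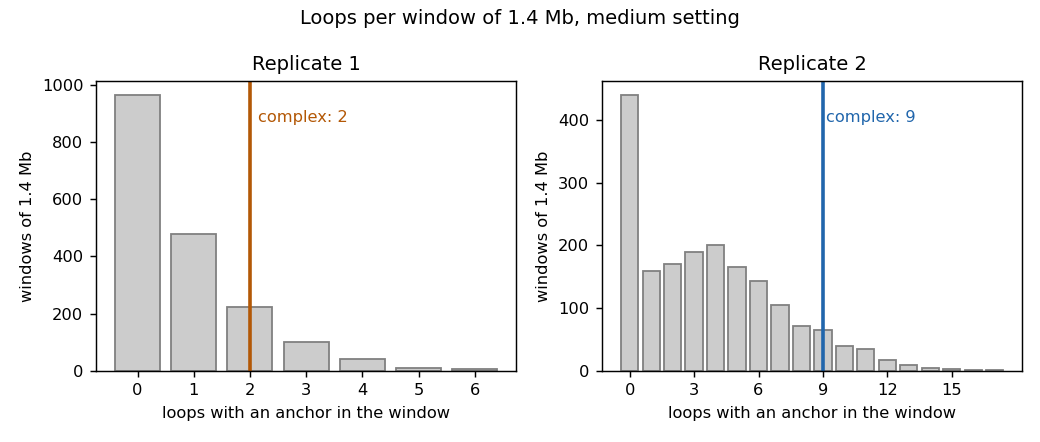
Number of windows of 1.4 Mb by the number of loops with an anchor in them, in replicate 1 (left) and replicate 2 (right). The vertical lines mark the C-type lectin complex, at 2 and 9 loops.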

How the data were processed

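Hi-C was run on 2 samples of 1 line. HiC-Pro 2.11.1 and the mm10 build are given in the submitters' processing notes, and the caller of loops and domains is not given in the sources used here. The authors deposited, per sample, 2 loop lists (called medium and high after words in their names) and 1 domain list. Each loop has anchors of 5, 10 or 25 kb, a number n and a value qBL, none defined. The deposited lists hold no read totals, so depth is unknown and no counting interval or floor is given.

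Loops were read with Python 3.11.15. Loops were called found in both replicates when both anchor midpoints lay within 20 kb. The span is the distance between midpoints, a stretch is the union of overlapping loops, and a gene counted as at an anchor when an end of its RefSeq record (GRCm38.p6, the assembly mm10 names) lay in it. Left out were 345 records that stood out of position order for their chromosome, and these were taken to be on scaffolds. Domain starts were moved to count from 1. The matching and the gene rule were tested on simulated data. All 22 other genes of the complex matched a record, 20 protein-coding. The named genes are the 8, those others with an end in an anchor or next to one of the 8, and genes at anchors of their loops. 2310001H17Rik, Gm38906, Styk1, Klrd1, Klrk1 and the Klra and Klrc genes were named after their values were seen. The genes, lists and rules were chosen with earlier results of these data known. No genome sequence or protein sequence was used, so the planned comparison of the proteins was not run.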

Additional observations from a re-analysis of the deposited data

How the results depend on the processing

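Of 29 alternatives, 16 left the count within 1.5 times its value. The 11 loops of the complex became 9 under the high setting, which leaves out loops on 25 kb anchors, 10 when both anchors had to lie in the window, and 2 to 9 with 1 replicate left out. Of the 2 loops found in both replicates, counted in either replicate, there was 1 at a matching distance of 10 kb or with overlapping anchors, and 0 under the high setting, where replicate 1 has no loop here. At 50 kb the replicate 2 loops with a partner numbered 4. The 5 listed genes with an end in an anchor numbered 3 to 4 with 1 replicate left out, and 4 to 6 under the other alternatives. The 5 other genes of the complex numbered 2 to 3 with 1 replicate left out, 3 under the high setting, 2 at loops found in both replicates, and 5 to 7 otherwise. The 1 domain lay wholly inside the window. No paired analysis was possible because the samples form 1 group. With 2 samples and unknown depth, loops listed once cannot be told from loops missed in the other list.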
